A study of Mus musculus with 12 samples.

Results

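Lysosomal genes were examined in mouse bone marrow-derived mesenchymal stromal cells (MSCs): 47 genes that encode acid hydrolases, proteins of the lysosomal membrane and subunits of the vacuolar proton pump (V-ATPase). They were chosen by name, from what their products are known to do and with earlier results of these data known, as the rows of the deposited count table whose Ensembl identifiers belong to these symbols. The table lists 55487 genes, of which 11314 protein-coding genes had enough counts to be tested, and all 47 lysosomal genes were among them. They fall into 11 proteases, 9 glycosidases, 7 hydrolases of lipids and sulfate esters (counting the activator precursor Psap), 5 membrane proteins and 15 V-ATPase genes. The question was how these classes changed in MSCs given A1, alone or with an antigen.

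RNA was sequenced from 3 groups of 4 samples of primary MSCs, grown from femurs of wild-type C57BL/6 female mice aged 6 to 8 weeks. Control MSCs were untreated. A1-treated MSCs received 50 μM A1 for 6 h, and A1 + OVA-treated MSCs received 50 μM A1 with 1 mg/ml ovalbumin (OVA), a model antigen, for 6 h. A1 is a bile acid, cholic acid, linked to the nuclear localization peptide of hnRNPA1. There was no group given OVA or diluent alone, so that the part of OVA can be read only in the presence of A1, and the protocol for the OVA medium also names insulin, whose part cannot be told apart from that of OVA. Nothing in the labels says that samples of a group came from separate cultures or animals, so that the p-values measure only the spread between these samples.

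Lysosomes break down proteins, sugars and lipids with hydrolases that work in acid. The acid comes from the V-ATPase, a rotary pump in which the V1 sector on the cytosolic side splits ATP and the V0 sector in the membrane carries protons inward, while membrane proteins such as LAMP1 and LAMP2 line the organelle and others export the products of digestion. Many of these genes carry in their promoters the CLEAR element, a palindrome bound by TFEB and related factors. In antigen-presenting cells the same proteases and the same pump set how far an engulfed antigen is digested.

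Core letters of that palindrome were searched in RefSeq promoters (250 bases before to 50 bases after a start site, GRCm38.p6), and 40 of the 47 lysosomal genes had an entry. Asah1, Atp6v1b2, Atp6v1c1, Atp6v1g1, Atp6v1h, Ctsb and Ctsh were not matched. CACGTG was found for 40.0% of the 40 genes, against 11.9% of the 8954 tested genes with an entry and 8.09% of all 27025 genes in the promoter table. TCACGTGA, which contains CACGTG, was found for 7 of the 40 genes (17.5%), against 2.32% of the tested genes and 1.12% of all genes. Since the element is known from promoters of such genes, higher shares among them describe the list and are not a test. Both motifs read the same on both strands, and a match describes the letters and not a bound site. The 7 genes are Ctsa, Ctsd, Gla, Cln3, Atp6v0d1, Atp6v0e and Atp6v1a, so that proteases, a glycosidase, a membrane protein and both sectors of the pump are among them. Their stretches are shown beside their changes with A1, where only Cln3, which had few counts, was called higher (values below). The motif is in capitals with 15 bases on each side, and the stretches run 5′ to 3′ on the strand of the gene.
Ctsa (chr2:164833745-164833799, plus strand): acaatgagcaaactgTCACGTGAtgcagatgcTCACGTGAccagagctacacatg
Cln3 (chr7:126583336-126583373, minus strand): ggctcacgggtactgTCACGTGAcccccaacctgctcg
Ctsd (chr7:142387904-142387941, minus strand): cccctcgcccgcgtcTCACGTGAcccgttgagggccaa
Atp6v0d1 (chr8:105566046-105566083, minus strand): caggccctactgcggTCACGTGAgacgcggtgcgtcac
Atp6v1a (chr16:44139369-44139406, minus strand): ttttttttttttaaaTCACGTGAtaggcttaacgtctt
Atp6v0e (chr17:26676383-26676420, plus strand): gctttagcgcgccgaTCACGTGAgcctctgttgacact
Gla (chrX:134601178-134601248, minus strand): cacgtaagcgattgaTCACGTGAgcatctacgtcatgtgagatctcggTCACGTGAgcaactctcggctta
The matches in Ctsa and Gla are double, and the one in Atp6v0d1 begins 4 bases before the start site and runs across it.

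Each sample had between 13702348 and 16881995 counts, with 13702348 to 14347870 in the A1-treated samples. Levels are given as CPM, the counts scaled to a common library size with TMM factors. Fold changes and their adjusted p-values come from edgeR's quasi-likelihood test with all 12 samples in 1 fit, adjusted over the 11314 genes, and a gene is called higher or lower at an adjusted p-value under 0.05. Of 10 MSC markers, 9 were tested. The summed level of the 10 was 8223 to 9108 CPM in control, 7600 to 8320 CPM in A1-treated and 7798 to 8272 CPM in A1 + OVA-treated samples. The defining markers Thy1 and Nt5e were low (0.267 and 0.539 CPM on average in control). Thy1 was not tested, and its mean came mostly from control sample 2 (1.00 CPM, against 0 to 0.0619 CPM in the others). Col1a1 and Col1a2 carried most of the summed level (3335 and 4266 CPM on average in control), and single markers changed with A1. Cd44 was higher (175 CPM on average in control, 458 CPM with A1), whereas Pdgfra (247 and 125 CPM), Vcam1 (226 and 117 CPM), Ly6a (35.1 and 23.3 CPM) and Col1a2 (4266 and 3649 CPM) were lower. Markers of endothelial, lymphoid and osteoclast cells were not tested, since 0 of 5, 0 of 4 and 0 of 7 had enough counts. Of 14 macrophage markers, 3 were tested (Cd14, Mrc1 and Cd68), and C1qa, C1qb, C1qc and Tyrobp had 0 counts in every sample. The summed level of the 14 was 10.8 to 12 CPM in control, 15.5 to 17.9 CPM with A1 and 12.9 to 15.5 CPM with A1 + OVA. Cd14 and Mrc1 carried the rise with A1 (7.59 and 1.48 CPM on average in control, 11.3 and 3.01 CPM with A1). Cd68 did not pass the test with A1 (1.52 and 1.41 CPM, adjusted p = 0.694), and the untested Lyz2 was lower (0.320 and 0.111 CPM). The summed level of the 4 adipocyte markers, 2 of them tested, was lower with treatment. It was 2.95 to 5.01 CPM in control, 1.38 to 1.95 CPM with A1 and 1.32 to 2.32 CPM with A1 + OVA. The part of these cells and markers in the lysosomal results was not tested, and in bulk RNA fewer cells of a type and less RNA per cell cannot be told apart.

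Most of the lysosomal genes were lower with A1, by small amounts. With A1, 29 of the 47 genes were lower than in control (61.7%), against 31.1% of all genes tested, and 9 were higher (19.1%), against 31.7% of all genes tested. The median log2 fold change of the 47 was -0.19, beside -0.0017 over all genes tested. Few changes were large: 7 genes were lower by at least 0.5 on the log2 scale (14.9%, against 11.6% of all genes) and 2 were higher by at least as much (4.26%, against 9.41% of all genes). The 2 are Ctsk and Cln3, with 6 and 9 counts in control sample 4. They passed the filter on low counts only together with treated samples, so their places among the genes counted as higher are not read as results. Among the 7 lower genes, Ctsf had few counts as well (8 to 37 per sample). The summed level of the 47 genes was 7838 to 7997 CPM in the A1-treated samples and 8503 to 8999 CPM in control, so that every A1-treated sample lay under every control sample.

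With A1 + OVA 22 of the 47 genes did not pass the test against control in either direction. This share was close to that of all genes, of which 4796 of 11314 did not pass. 17 of 47 were lower (36.2%), against 27.9% of all genes, and 8 were higher (17%), against 29.7% of all genes, with a median of -0.02. By at least 0.5 on the log2 scale, 3 were lower (6.38%, against 8.79% of all genes) and 2 were higher (4.26%, against 8.92% of all genes). Cln3 is among the higher ones, with the same limit, and Ctsf, with its few counts, is among the lower ones. The summed level was 8356 to 8737 CPM, which overlapped with control. Set directly against A1, A1 + OVA-treated MSCs had 19 of the 47 genes higher (40.4%), against 6.05% of all genes, and 0 lower, against 6.81% of all genes. The median of this direct comparison was 0.14, beside 0.0057 over all genes, and 40 of the 47 estimates were above 0. With an unadjusted p-value under 0.05 edgeR gave 31 higher genes and 1 lower gene. At an adjusted p-value under 0.05 DESeq2 gave 17 higher and 0 lower genes. Shares over all genes were not taken for the unadjusted, DESeq2 or above-0 counts. These counts are therefore not to be set against the 6.05% and 6.81%. The 3 comparisons share samples, since control enters both treatments and A1 enters the direct comparison, and they are therefore given gene by gene below and not counted against each other.

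**Figure D1:**
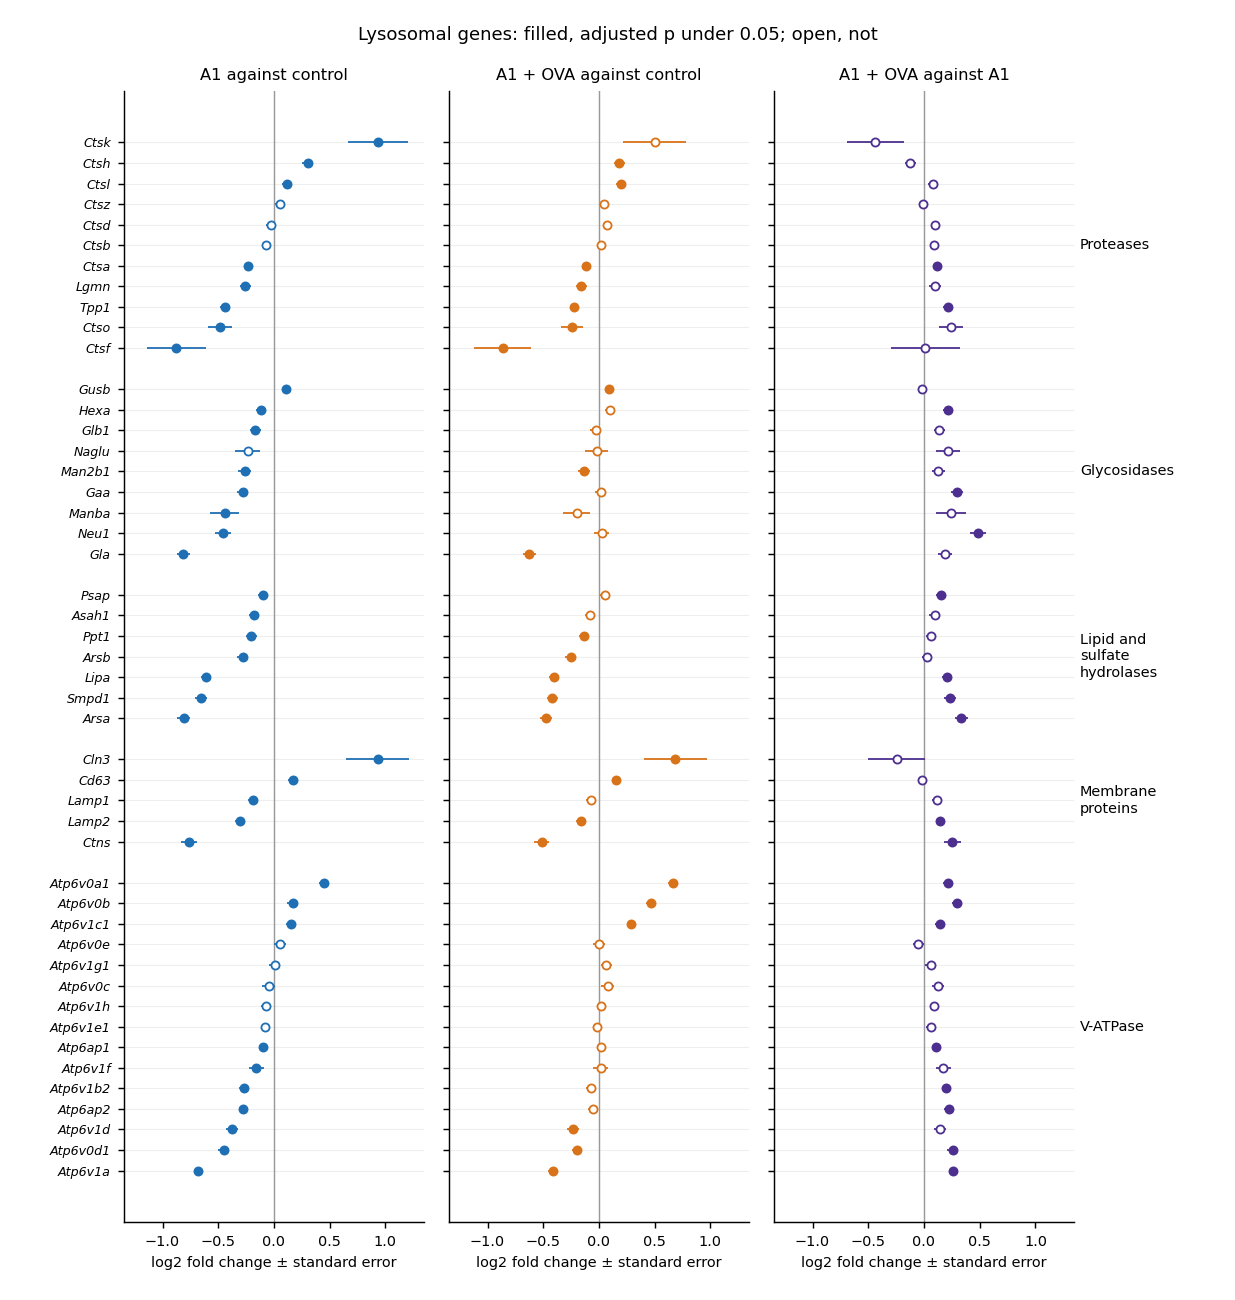
Log2 fold change with its standard error (x axis) of each of the 47 lysosomal genes (y axis, grouped by class), for A1 against control, A1 + OVA against control and A1 + OVA against A1; filled points have an adjusted p-value under 0.05. With A1, 29 genes were lower and 9 higher, and in the direct comparison 19 were higher and 0 lower.

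The classes are given side by side, and differences between them were not tested. Of all genes tested, 31.1% were lower and 31.7% higher with A1, and classes of 5 to 15 genes are too small to read a share against these. The same limit holds for the class counts of the other comparisons. There, 27.9% of all genes were lower and 29.7% higher with A1 + OVA, and directly 6.81% were lower and 6.05% higher. With A1 every gene in the class of lipid and sulfate hydrolases was lower (7 of 7, median log2 fold change -0.28). The call of 1 of them, the activator precursor Psap, was lost in 7 of 19 alternatives. Of the glycosidases 7 of 9 were lower and 1 higher (median -0.26). Of the proteases 5 of 11 were lower and 3 higher, Ctsk with its few counts among the latter (median -0.07). Of the membrane proteins 3 of 5 were lower and 2 higher, Cln3 with its few counts among the latter (median -0.19). Of the V-ATPase genes 7 of 15 were lower and 3 higher (median -0.08). The mean summed level changed by -12% for the lipid and sulfate hydrolases, -10.9% for the glycosidases, -10.0% for the V-ATPase genes, -8.42% for the membrane proteins and -3.23% for the proteases. No test was made over these sums. In the first 4 of these classes all A1-treated samples lay under all control samples, while for the proteases A1-treated samples stood at 96.1% to 97.6% of the control mean and control samples at 96.9% to 105%, so that they overlapped. With A1 + OVA the lipid and sulfate hydrolases stood at 96.4% to 97.5% of the control mean, which overlapped with the control samples (96.7% to 103%). The V-ATPase genes stood at 98.0% to 102%, where control was 98.3% to 103%. Abundant genes weigh most in these sums and in that of all 47 genes. In control, Psap had 1128 of the 1909 CPM of its class, and Ctsb and Ctsl had 556 and 445 of 1708 CPM. Lamp1, Lamp2 and Cd63 had 1287, 744 and 650 of 2704 CPM.

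**Figure D2:**
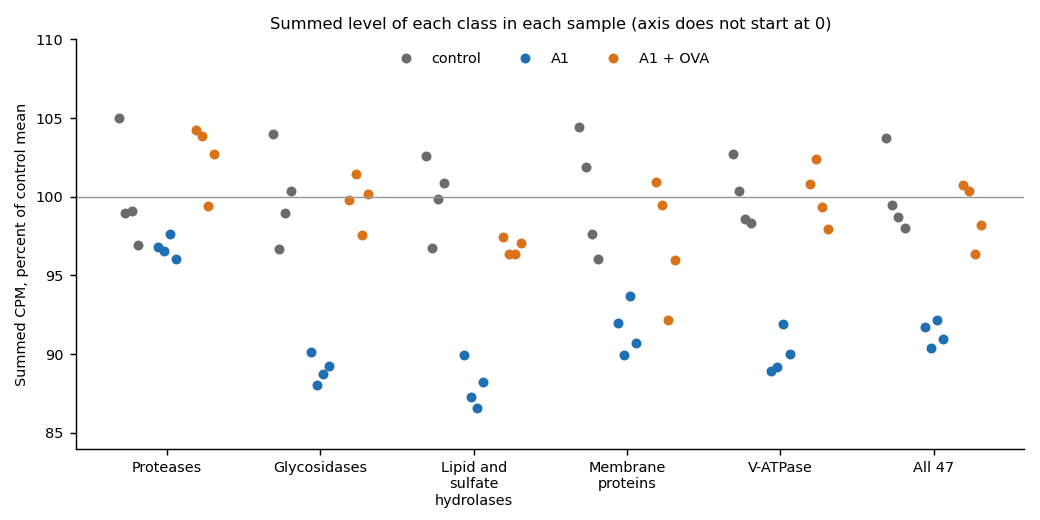
Summed CPM of each class in each sample, as a percent of the mean of the 4 control samples (y axis, which does not start at 0), by class (x axis); each point is a sample. A1-treated samples lay under all control samples in every class except the proteases, while A1 + OVA-treated samples overlapped with control in each class.

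All 7 lipid and sulfate hydrolases were lower with A1, and Arsa, Smpd1 and Lipa had the largest changes of the class. The counts of Arsa, arylsulfatase A, which removes the sulfate of sulfatide, gave 48, 45.7, 47.3 and 49.3 CPM in control samples 1 to 4. They gave 27, 27.2, 25.7 and 28.6 CPM with A1 and 35, 31.9, 32.8 and 37.2 CPM with A1 + OVA. The gene (ENSMUSG00000022620) lies on chromosome 15 from 89472476 to 89477425 (GRCm38, minus strand). All A1-treated samples lay under all control samples, with the A1 + OVA-treated samples between them and touching neither. A1 lowered Arsa to 0.571-fold of control (log2 fold change -0.81, SE 0.06, adjusted p = 5.17e-11). A1 + OVA lowered it to 0.72-fold of control (log2 fold change -0.47, SE 0.05, adjusted p = 1.46e-07). A1 + OVA exceeded A1 1.26-fold for Arsa (log2 fold change 0.34, SE 0.06, adjusted p = 0.000664). For Smpd1, acid sphingomyelinase, the levels were 48.6, 46.9, 46.8 and 50.7 CPM in control samples 1 to 4. They were 28.6, 31.1, 31.8 and 31.2 CPM with A1 and 35.9, 37.9, 35.1 and 35.5 CPM with A1 + OVA. The groups stood in the same order with no overlap. With A1 Smpd1 was at 0.636-fold of control (log2 fold change -0.65, SE 0.05, adjusted p = 4.2e-10). With A1 + OVA Smpd1 stood at 0.749-fold of control (log2 fold change -0.42, SE 0.05, adjusted p = 2.99e-07). Smpd1 was 1.18-fold higher with A1 + OVA than with A1 (log2 fold change 0.24, SE 0.05, adjusted p = 0.00581).

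Lipa, the acid lipase that frees cholesterol and fatty acids from lipoprotein lipids, had 139.8, 129, 129 and 131 CPM in control samples 1 to 4. It had 90.7, 84.4, 88.5 and 83.1 CPM with A1 and 102, 101, 94.3 and 103 CPM with A1 + OVA. No A1-treated sample reached an A1 + OVA-treated one, and no treated sample reached control. Lipa fell to 0.655-fold of control with A1 (log2 fold change -0.61, SE 0.04, adjusted p = 4.64e-11). The fall with A1 + OVA was to 0.756-fold of control (log2 fold change -0.40, SE 0.04, adjusted p = 3.11e-08). Set directly against A1, Lipa was 1.15-fold higher with A1 + OVA (log2 fold change 0.21, SE 0.04, adjusted p = 0.00293). Arsb, arylsulfatase B, which acts on dermatan sulfate, had 97.1, 104, 97.3 and 104 CPM in control samples 1 to 4. It had 84.2, 82.5, 79 and 85.4 CPM with A1 and 91.1, 86.4, 82.3 and 78.2 CPM with A1 + OVA. Both treated groups lay under control and overlapped with each other. A1 lowered Arsb to 0.822-fold of control (log2 fold change -0.28, SE 0.05, adjusted p = 2.38e-05). A1 + OVA lowered it to 0.839-fold of control (log2 fold change -0.25, SE 0.05, adjusted p = 7.92e-05). The direct comparison gave log2 fold change 0.03, SE 0.05, adjusted p = 0.75.

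Psap, the precursor of the saposins that present lipids to the hydrolases, was the most abundant gene of the class per length (411 CPM per kb of exons in control, against 12.9 for Arsa, the lowest). It had 1179, 1039, 1140.1 and 1153 CPM in control samples 1 to 4, 1094, 1062, 1005 and 1051 CPM with A1 and 1154, 1155, 1194 and 1172 CPM with A1 + OVA. Control sample 2 lay among the A1-treated samples, and all A1 + OVA-treated samples lay above all A1-treated samples. With A1 Psap was at 0.934-fold of control (log2 fold change -0.10, SE 0.04, adjusted p = 0.04). A1 + OVA exceeded A1 1.11-fold for Psap (log2 fold change 0.15, SE 0.04, adjusted p = 0.0177). The A1 call was lost in 7 of 19 alternatives (largest adjusted p = 0.113), among them those without control sample 1, 3 or 4 or A1 sample 2, 3 or 4. The direct call was lost without A1 sample 3 (adjusted p = 0.0696). For Psap, A1 + OVA against control gave log2 fold change 0.05, SE 0.04, adjusted p = 0.288. The remaining genes of the class were Ppt1 and Asah1. Ppt1, a thioesterase that removes palmitate from proteins, was lower with A1 (log2 fold change -0.20, SE 0.05, adjusted p = 0.000592) and with A1 + OVA (log2 fold change -0.14, SE 0.04, adjusted p = 0.0127). Asah1, acid ceramidase, was lower with A1 (log2 fold change -0.18, SE 0.05, adjusted p = 0.00187), while A1 + OVA against control gave log2 fold change -0.08, SE 0.04, adjusted p = 0.124. Directly, 4 of the 7 genes were higher with A1 + OVA than with A1 (Arsa, Smpd1, Lipa and Psap), and none was lower. With A1 + OVA 5 of the 7 were lower than control and 0 were higher (median -0.25). Over all genes tested, 6.05% were higher and 6.81% lower directly, and 29.7% higher and 27.9% lower with A1 + OVA.

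Among the glycosidases Gla had the largest change, and Neu1 and Gaa had the largest called differences between both treatments. Gusb was the 1 gene of the class that was higher. The counts of Gla, α-galactosidase A, which trims globotriaosylceramide, gave 38.9, 39.6, 36.6 and 37 CPM in control samples 1 to 4. They gave 20.1, 21.6, 22.7 and 22 CPM with A1 and 22.9, 26.3, 24.2 and 25 CPM with A1 + OVA. The gene (ENSMUSG00000031266) lies on chromosome X from 134588149 to 134601125 (GRCm38, minus strand). Every treated sample lay under every control sample, and the lowest A1 + OVA-treated sample lay just above the highest A1-treated one. Gla fell to 0.568-fold of control with A1 (log2 fold change -0.81, SE 0.06, adjusted p = 1.01e-10). With A1 + OVA Gla stood at 0.648-fold of control (log2 fold change -0.63, SE 0.06, adjusted p = 4.74e-09). Directly, the difference missed the threshold (log2 fold change 0.19, SE 0.06, adjusted p = 0.0502), although the samples of both treatments did not overlap. It was called in 5 of 19 alternatives, in which the lowest adjusted p was 0.0291. For Neu1, a sialidase, the levels were 32.4, 28.5, 29.3 and 28.4 CPM in control samples 1 to 4. They were 21.9, 23.3, 20.5 and 20.6 CPM with A1 and 26.5, 29, 33.4 and 31.6 CPM with A1 + OVA. A1-treated samples lay under all others, and A1 + OVA-treated samples spread across the control range. A1 lowered Neu1 to 0.728-fold of control (log2 fold change -0.46, SE 0.07, adjusted p = 1.36e-05). Neu1 was 1.4-fold higher with A1 + OVA than with A1 (log2 fold change 0.48, SE 0.07, adjusted p = 0.000173). Against control, A1 + OVA gave log2 fold change 0.02, SE 0.07, adjusted p = 0.782. Gaa, acid α-glucosidase, which degrades glycogen, had 114, 97.9, 113 and 115 CPM in control samples 1 to 4. It had 91.9, 90.8, 87 and 92.2 CPM with A1 and 106, 118, 113 and 107 CPM with A1 + OVA. Control sample 2 was below the other control samples and still above all A1-treated samples. With A1 Gaa was at 0.823-fold of control (log2 fold change -0.28, SE 0.05, adjusted p = 5.16e-05). Set directly against A1, Gaa was 1.23-fold higher with A1 + OVA (log2 fold change 0.30, SE 0.05, adjusted p = 0.000509). Against control, A1 + OVA gave log2 fold change 0.02, SE 0.05, adjusted p = 0.807.

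The counts of Manba, β-mannosidase, gave 7.43, 8.28, 7.49 and 9.66 CPM in control samples 1 to 4. They gave 6.94, 5.65, 6.72 and 4.87 CPM with A1 and 8.41, 7.60, 6.07 and 6.59 CPM with A1 + OVA. Its length-scaled level in control was the lowest of the class (1.18 CPM per kb), with 67 to 154 counts per sample. All A1-treated samples lay under all control samples. Manba fell to 0.736-fold of control with A1 (log2 fold change -0.44, SE 0.13, adjusted p = 0.00523). A1 + OVA overlapped with both groups (log2 fold change -0.20, SE 0.12, adjusted p = 0.167 against control, and log2 fold change 0.24, SE 0.13, adjusted p = 0.252 against A1).

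Hexa, the α subunit of β-hexosaminidase, was the most abundant glycosidase per length (66.3 CPM per kb in control). It had 143, 130.3, 129 and 127 CPM in control samples 1 to 4, 129, 121, 118 and 119.6 CPM with A1 and 146, 144, 134 and 143 CPM with A1 + OVA. The A1-treated and control samples overlapped, since A1 sample 1 lay within the control range, while all A1 + OVA-treated samples lay above all A1-treated samples. A1 lowered Hexa to 0.921-fold of control (log2 fold change -0.12, SE 0.04, adjusted p = 0.0232). A1 + OVA exceeded A1 1.16-fold for Hexa (log2 fold change 0.22, SE 0.04, adjusted p = 0.00226). The A1 call was lost without control sample 1 or A1 sample 3 (largest adjusted p = 0.106). Against control, A1 + OVA gave log2 fold change 0.10, SE 0.04, adjusted p = 0.0554, which was called in 3 of 19 alternatives, among them without control sample 1 or A1 + OVA sample 3 (lowest adjusted p = 0.00613).

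The α-mannosidase Man2b1 was lower with A1 (log2 fold change -0.26, SE 0.06, adjusted p = 0.000465) and with A1 + OVA (log2 fold change -0.14, SE 0.06, adjusted p = 0.0443), the latter not without control sample 3 or 4 or A1 + OVA sample 1 or 2 (largest adjusted p = 0.209). The β-galactosidase Glb1 was lower with A1 (log2 fold change -0.17, SE 0.05, adjusted p = 0.00629). Naglu, which acts on heparan sulfate, did not pass the test with A1 (log2 fold change -0.24, SE 0.11, adjusted p = 0.0652). It was called lower in 4 of 19 alternatives (lowest adjusted p = 0.00391). Gusb, β-glucuronidase, was higher with A1 (log2 fold change 0.11, SE 0.04, adjusted p = 0.0188) and with A1 + OVA (log2 fold change 0.09, SE 0.04, adjusted p = 0.0411), by amounts that overlapped between samples, and its calls were lost in 4 and in 14 of 19 alternatives (largest adjusted p = 0.0876 and 0.136). Directly, 3 of 9 glycosidases were higher with A1 + OVA than with A1 (Neu1, Gaa and Hexa), and 0 were lower. With A1 + OVA, 2 of 9 were lower than control and 1 was higher (median -0.02). Over all genes tested, 6.05% were higher and 6.81% lower directly, and 29.7% higher and 27.9% lower with A1 + OVA.

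**Figure D3:**
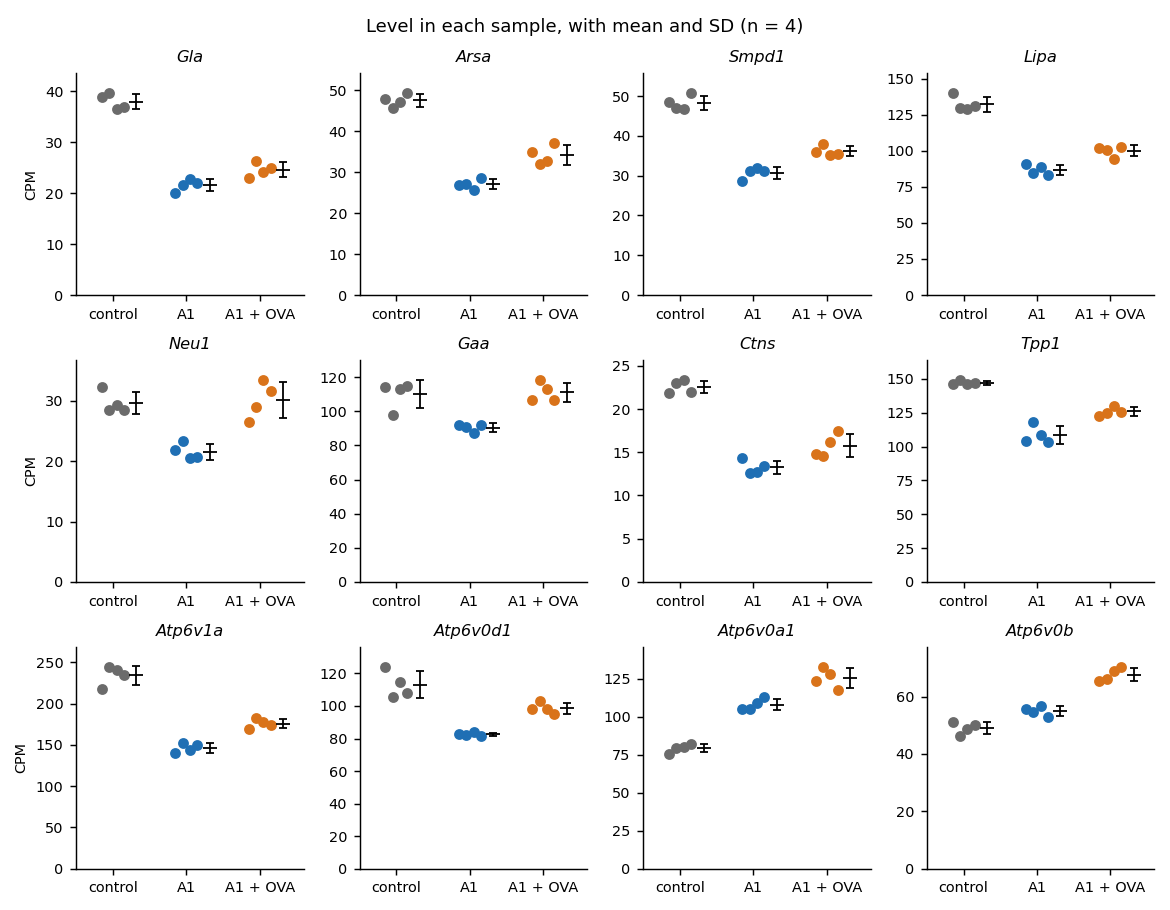
CPM (y axis, from 0) of 12 lysosomal genes in each of the 4 control, 4 A1-treated and 4 A1 + OVA-treated samples (points), with the mean and SD beside each group. For Neu1 and Gaa the A1-treated samples lie under both other groups, whereas for Atp6v0a1 and Atp6v0b the 3 groups rise in steps without overlap.

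Of the cysteine cathepsins Ctsh, Ctsl and Ctsk were higher with A1, whereas Ctsf and Ctso were lower, and the abundant Ctsb, Ctsz and the aspartic protease Ctsd did not pass the test. For Tpp1, tripeptidyl peptidase 1, which clips tripeptides from the ends of proteins, the levels were 146, 149, 146 and 147 CPM in control samples 1 to 4. They were 104, 118, 109 and 103 CPM with A1 and 123, 125, 130.1 and 126 CPM with A1 + OVA. The 3 groups did not overlap, and the control samples lay close together. With A1 Tpp1 was at 0.738-fold of control (log2 fold change -0.44, SE 0.04, adjusted p = 5.52e-09). The fall with A1 + OVA was to 0.856-fold of control (log2 fold change -0.22, SE 0.04, adjusted p = 6.09e-05). Tpp1 was 1.16-fold higher with A1 + OVA than with A1 (log2 fold change 0.22, SE 0.04, adjusted p = 0.00143). Ctso, cathepsin O, had 12.7, 12.4, 10.6 and 10.0 CPM in control samples 1 to 4. It had 7.59, 9.70, 8.70 and 6.75 CPM with A1 and 9.42, 9.81, 9.64 and 9.74 CPM with A1 + OVA. Treated samples all lay under control, and both treatments overlapped. Ctso fell to 0.714-fold of control with A1 (log2 fold change -0.49, SE 0.11, adjusted p = 0.000413). A1 + OVA lowered it to 0.845-fold of control (log2 fold change -0.24, SE 0.10, adjusted p = 0.0415). The A1 + OVA call was lost in 7 of 19 alternatives (largest adjusted p = 0.13), among them without control sample 1 or 2 or any 1 of the A1 + OVA samples. Directly, the test gave log2 fold change 0.24, SE 0.11, adjusted p = 0.154. Ctsb, cathepsin B, was the most abundant protease per length (92 CPM per kb in control). It had 583, 545, 561 and 536 CPM in control samples 1 to 4, 538, 519.9, 531 and 535 CPM with A1 and 569.7, 575, 545 and 565 CPM with A1 + OVA. A1-treated samples overlapped with control only through the lowest control sample. The test gave log2 fold change -0.07, SE 0.04, adjusted p = 0.105 for A1 and log2 fold change 0.02, SE 0.04, adjusted p = 0.678 for A1 + OVA against control. With upper-quartile scaling Ctsb was called lower with A1 (adjusted p = 0.0233).

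Both proteases with the largest fold changes had few counts. Ctsk, a collagen-degrading protease known from osteoclasts, had 6 to 21 counts per sample, and Ctsf, cathepsin F, 8 to 37. Ctsk had 0.681, 0.650, 1.11 and 0.376 CPM in control samples 1 to 4, 1.08, 1.60, 1.22 and 1.52 CPM with A1 and 1.16, 0.886, 0.924 and 1.05 CPM with A1 + OVA. Control sample 3 lay just above A1 sample 1, so that the groups overlapped. A1 raised Ctsk 1.91-fold over control (log2 fold change 0.94, SE 0.27, adjusted p = 0.00501). A1 + OVA against control gave log2 fold change 0.50, SE 0.28, adjusted p = 0.137 (called without control sample 3, adjusted p = 0.0278). For Ctsf, the lowest protease per length (0.380 CPM per kb in control), the levels were 2.29, 1.83, 1.92 and 1.63 CPM in control samples 1 to 4, 0.940, 0.611, 1.91 and 0.726 CPM with A1 and 1.09, 1.14, 1.25 and 0.740 CPM with A1 + OVA. A1 sample 3 lay within the control range and far from the other A1-treated samples, while all A1 + OVA-treated samples lay under control. With A1 Ctsf was at 0.545-fold of control (log2 fold change -0.88, SE 0.27, adjusted p = 0.00713). With A1 + OVA Ctsf stood at 0.55-fold of control (log2 fold change -0.86, SE 0.26, adjusted p = 0.0068). The log2 fold change of Ctsf with A1 ranged from -1.33 to -0.70 over 18 alternatives, and these 2 genes and Cln3 drop out when at least 10 counts are required in every sample. Ctsk, with 6 counts in control sample 4, passed the filter on low counts only together with treated samples, so its rise is not read as a result.

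Ctsh, an aminopeptidase, was higher with A1 (log2 fold change 0.30, SE 0.05, adjusted p = 1.38e-05) and with A1 + OVA (log2 fold change 0.18, SE 0.05, adjusted p = 0.00299), in all treated samples. The endopeptidase Ctsl was higher with A1 (log2 fold change 0.12, SE 0.04, adjusted p = 0.0237) and with A1 + OVA (log2 fold change 0.20, SE 0.04, adjusted p = 0.000533), the former not in 4 of 19 alternatives (without control sample 3 or 4, without A1 sample 3, and with upper-quartile scaling, largest adjusted p = 0.0891). Lgmn, the asparaginyl endopeptidase that cuts cathepsins into their mature chains, was lower with A1 (log2 fold change -0.26, SE 0.05, adjusted p = 0.000106) and with A1 + OVA (log2 fold change -0.16, SE 0.05, adjusted p = 0.00766). Ctsa, a carboxypeptidase that also shields Neu1 and Glb1 from breakdown, was lower with A1 (log2 fold change -0.23, SE 0.04, adjusted p = 2.85e-05) and with A1 + OVA (log2 fold change -0.11, SE 0.04, adjusted p = 0.0183). Its call against A1 (log2 fold change 0.12, SE 0.04, adjusted p = 0.049) was lost in 13 of 19 alternatives (largest adjusted p = 0.137), and that with A1 + OVA without control sample 1 or 3 or A1 + OVA sample 1 (largest adjusted p = 0.0686). The carboxypeptidase Ctsz and Ctsd gave log2 fold change 0.05, SE 0.04, adjusted p = 0.264 and log2 fold change -0.03, SE 0.04, adjusted p = 0.593 with A1. Ctsz was called higher when control sample 1 was left out (adjusted p = 0.0493). Of the exonic 100-base windows of Ctsd, 30.2% are shared with another annotated gene, so that its counts are uncertain. Directly, Tpp1 and Ctsa were the 2 of 11 proteases that were higher with A1 + OVA than with A1. With A1 + OVA 5 were lower and 2 higher than control (median 0.02). Over all genes tested, 6.05% were higher and 6.81% lower directly, and 29.7% higher and 27.9% lower with A1 + OVA.

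Of the membrane proteins, Ctns, Lamp1 and Lamp2 were lower with A1, and Cd63 and Cln3 were higher. The counts of Ctns, the carrier that exports cystine, gave 21.9, 23, 23.3 and 22 CPM in control samples 1 to 4. They gave 14.3, 12.6, 12.7 and 13.4 CPM with A1 and 14.8, 14.6, 16.2 and 17.5 CPM with A1 + OVA. The gene (ENSMUSG00000005949) lies on chromosome 11 from 73183596 to 73199042 (GRCm38, minus strand). The 3 groups did not overlap. Ctns fell to 0.588-fold of control with A1 (log2 fold change -0.77, SE 0.07, adjusted p = 6.94e-09). The fall with A1 + OVA was to 0.7-fold of control (log2 fold change -0.51, SE 0.07, adjusted p = 1.5e-06). Set directly against A1, Ctns was 1.19-fold higher with A1 + OVA (log2 fold change 0.25, SE 0.08, adjusted p = 0.0336). The direct call was lost in 6 of 19 alternatives (largest adjusted p = 0.137), among them DESeq2 and those without A1 sample 2, 3 or 4 or A1 + OVA sample 3 or 4. For Lamp2, a heavily glycosylated protein of the lysosomal membrane, the levels were 761, 774, 721 and 722 CPM in control samples 1 to 4. They were 600.4, 602, 608 and 594 CPM with A1 and 691, 677, 634 and 653 CPM with A1 + OVA. A1-treated samples lay close together and under all others, and A1 + OVA-treated samples lay under all control samples. A1 lowered Lamp2 to 0.808-fold of control (log2 fold change -0.31, SE 0.04, adjusted p = 3.22e-07). A1 + OVA lowered it to 0.891-fold of control (log2 fold change -0.17, SE 0.04, adjusted p = 0.000665). A1 + OVA exceeded A1 1.1-fold for Lamp2 (log2 fold change 0.14, SE 0.04, adjusted p = 0.0146).

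Lamp1, its relative, had the highest length-scaled level of all 47 genes (481 CPM per kb in control). It had 1347, 1316, 1263 and 1219.5 CPM in control samples 1 to 4, 1127, 1105, 1154 and 1135 CPM with A1 and 1283, 1276, 1140.2 and 1199 CPM with A1 + OVA. A1-treated samples lay under all control samples, and A1 + OVA sample 3 fell among them. With A1 Lamp1 was at 0.879-fold of control (log2 fold change -0.19, SE 0.04, adjusted p = 0.000621). The test gave log2 fold change -0.07, SE 0.04, adjusted p = 0.157 for A1 + OVA against control and log2 fold change 0.12, SE 0.04, adjusted p = 0.0756 against A1, and the latter was called without A1 + OVA sample 3 (adjusted p = 0.0276).

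Cln3, a membrane protein whose loss causes juvenile Batten disease, had 0.928, 1.00, 0.990 and 0.564 CPM in control samples 1 to 4. It had 1.95, 1.53, 1.60 and 1.60 CPM with A1 and 1.16, 0.696, 1.78 and 1.97 CPM with A1 + OVA. Its 9 to 32 counts per sample and its length-scaled level (0.151 CPM per kb in control) were the lowest of the class. It passed the filter on low counts only together with treated samples, so its rise is not read as a result. All A1-treated samples lay above all control samples, and A1 + OVA-treated samples spread over both. Cln3 rose 1.9-fold over control with A1 (log2 fold change 0.93, SE 0.28, adjusted p = 0.00662). With A1 + OVA Cln3 stood 1.61-fold over control (log2 fold change 0.68, SE 0.28, adjusted p = 0.0441). The A1 + OVA call was lost in 14 of 18 alternatives, among them those without any 1 of the control samples (largest adjusted p = 0.201). The tetraspanin Cd63, which is found on lysosomes and late endosomes, was higher with A1 (log2 fold change 0.17, SE 0.04, adjusted p = 0.00072) and with A1 + OVA (log2 fold change 0.15, SE 0.04, adjusted p = 0.00202), in every treated sample. With A1 + OVA, 2 of the 5 genes were lower and 2 higher than control (median -0.07), and directly 2 were higher than with A1 (Ctns and Lamp2). Over all genes tested, 29.7% were higher and 27.9% lower with A1 + OVA, and 6.05% higher and 6.81% lower directly.

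The V-ATPase genes moved in opposite directions within the same complex. The A subunit, which binds ATP, and the d subunit, which joins the rotor to the central stalk, were lower with A1, while the a1 subunit, which forms part of the proton path, was higher. The counts of Atp6v1a, the catalytic A subunit of V1, gave 218, 244, 241 and 234 CPM in control samples 1 to 4. They gave 139.6, 152, 144 and 150.4 CPM with A1 and 169, 182, 177 and 174 CPM with A1 + OVA. The gene (ENSMUSG00000052459) lies on chromosome 16 from 44085402 to 44139705 (GRCm38, minus strand). The 3 groups did not overlap, with A1 lowest. A1 lowered Atp6v1a to 0.625-fold of control (log2 fold change -0.68, SE 0.04, adjusted p = 7.2e-12). The fall with A1 + OVA was to 0.75-fold of control (log2 fold change -0.42, SE 0.04, adjusted p = 2.03e-08). Atp6v1a was 1.2-fold higher with A1 + OVA than with A1 (log2 fold change 0.26, SE 0.04, adjusted p = 0.000326). For Atp6v0d1, the d subunit of V0, the levels were 124, 106, 115 and 108 CPM in control samples 1 to 4. They were 82.9, 82.2, 83.9 and 81.3 CPM with A1 and 97.8, 103, 98.2 and 95.1 CPM with A1 + OVA. A1-treated samples lay close together and under all others. With A1 Atp6v0d1 was at 0.731-fold of control (log2 fold change -0.45, SE 0.05, adjusted p = 3.1e-08). A1 + OVA lowered it to 0.873-fold of control (log2 fold change -0.20, SE 0.05, adjusted p = 0.000973). Set directly against A1, Atp6v0d1 was 1.19-fold higher with A1 + OVA (log2 fold change 0.26, SE 0.05, adjusted p = 0.00107). Atp6v1d, subunit D of the central stalk, had 82.8, 85.6, 80.6 and 83.1 CPM in control samples 1 to 4. It had 62.4, 65.8, 69 and 58.7 CPM with A1 and 75.4, 74.5, 67.8 and 65.6 CPM with A1 + OVA. Both treatments lay under control and overlapped with each other. Atp6v1d fell to 0.77-fold of control with A1 (log2 fold change -0.38, SE 0.05, adjusted p = 2.56e-06). With A1 + OVA Atp6v1d stood at 0.852-fold of control (log2 fold change -0.23, SE 0.05, adjusted p = 0.000678). Directly the test gave log2 fold change 0.15, SE 0.05, adjusted p = 0.0784, which was called without A1 sample 3 or A1 + OVA sample 4 (lowest adjusted p = 0.043).

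The counts of Atp6v0a1, the a1 subunit of V0, gave 75.8, 79.3, 80.1 and 82.1 CPM in control samples 1 to 4. They gave 105, 105, 109 and 113 CPM with A1 and 124, 133, 128 and 117 CPM with A1 + OVA. The gene (ENSMUSG00000019302) lies on chromosome 11 from 101009452 to 101063719 (GRCm38, plus strand). It was the V-ATPase gene with the lowest length-scaled level in control (12.1 CPM per kb). All A1-treated samples lay above control, and all A1 + OVA-treated samples lay above A1. A1 raised Atp6v0a1 1.36-fold over control (log2 fold change 0.45, SE 0.04, adjusted p = 1.42e-08). The rise with A1 + OVA was 1.58-fold over control (log2 fold change 0.66, SE 0.04, adjusted p = 1.97e-11). A1 + OVA exceeded A1 1.16-fold for Atp6v0a1 (log2 fold change 0.22, SE 0.04, adjusted p = 0.002). For Atp6v0b, the c″ subunit of the proton ring, the levels were 51.2, 46.2, 48.6 and 50.1 CPM in control samples 1 to 4. They were 55.8, 54.5, 56.8 and 53 CPM with A1 and 65.3, 66, 69 and 70.3 CPM with A1 + OVA. The groups stood in the same order without overlap. With A1 Atp6v0b was 1.12-fold over control (log2 fold change 0.17, SE 0.05, adjusted p = 0.0041). A1 + OVA raised it 1.38-fold over control (log2 fold change 0.46, SE 0.05, adjusted p = 1.55e-08). Atp6v0b was 1.23-fold higher with A1 + OVA than with A1 (log2 fold change 0.30, SE 0.05, adjusted p = 0.000194). Atp6v1c1, the C subunit that joins V1 to V0, was also higher with A1 (log2 fold change 0.15, SE 0.04, adjusted p = 0.00445) and with A1 + OVA (log2 fold change 0.29, SE 0.04, adjusted p = 4.32e-06). It was higher in the direct comparison as well (log2 fold change 0.14, SE 0.04, adjusted p = 0.0303), a call that was lost in 6 of 19 alternatives, each without 1 of A1 samples 1, 2 and 4 or of A1 + OVA samples 1, 2 and 4 (largest adjusted p = 0.0965).

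Both accessory genes were lower with A1. Atp6ap1, which guides assembly of the pump, was the most abundant per length (74.7 CPM per kb in control). It had 234, 224, 225 and 221 CPM in control samples 1 to 4, 210.2, 216, 209.8 and 209 CPM with A1 and 235, 226, 223 and 229 CPM with A1 + OVA. A1-treated samples lay under all others. Atp6ap1 fell to 0.935-fold of control with A1 (log2 fold change -0.10, SE 0.03, adjusted p = 0.0178). Set directly against A1, Atp6ap1 was 1.08-fold higher with A1 + OVA (log2 fold change 0.11, SE 0.03, adjusted p = 0.0359). Against control, A1 + OVA gave log2 fold change 0.01, SE 0.03, adjusted p = 0.739. The A1 call was lost without control sample 1 (adjusted p = 0.0503), and the direct call in 9 of 19 alternatives (largest adjusted p = 0.0959). Atp6ap2, the prorenin receptor, was lower with A1 (log2 fold change -0.28, SE 0.04, adjusted p = 1.82e-06) and higher with A1 + OVA than with A1 (log2 fold change 0.22, SE 0.04, adjusted p = 0.000611), whereas A1 + OVA against control gave log2 fold change -0.06, SE 0.04, adjusted p = 0.199.

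The B2 subunit Atp6v1b2, which sits beside A in the ATP-splitting ring, was lower with A1 (log2 fold change -0.27, SE 0.04, adjusted p = 3.05e-06) and higher with A1 + OVA than with A1 (log2 fold change 0.20, SE 0.04, adjusted p = 0.00191), with log2 fold change -0.08, SE 0.04, adjusted p = 0.0979 for A1 + OVA against control. Atp6v1f of the central stalk was lower with A1 (log2 fold change -0.16, SE 0.07, adjusted p = 0.044), a call lost in 5 of 19 alternatives, among them DESeq2 and those without control sample 1 or 3 or A1 sample 2 or 4 (largest adjusted p = 0.22). The remaining 5 subunits did not pass the test against control under either treatment. They are Atp6v0c of the proton ring, Atp6v0e, the stator subunits Atp6v1e1 and Atp6v1g1, and the regulatory Atp6v1h, with log2 fold changes between -0.08 and 0.05 for A1 and between -0.02 and 0.08 for A1 + OVA. Of the windows of Atp6v0c and Atp6v1g1, 7.84% and 7.34% are shared with other annotated genes. Directly, 8 of 15 V-ATPase genes were higher with A1 + OVA than with A1 (median 0.15). With A1 + OVA 3 were higher and 3 lower than control (median 0.01). Over all genes tested, 6.05% were higher and 6.81% lower directly, and 29.7% higher and 27.9% lower with A1 + OVA. Of the 5 uncalled subunits, Atp6v1e1 and Atp6v1h were called lower with A1 under upper-quartile scaling (lowest adjusted p = 0.0215 and 0.0275), and Atp6v0e was called higher without control sample 1 (adjusted p = 0.0259).

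**Figure D4:**
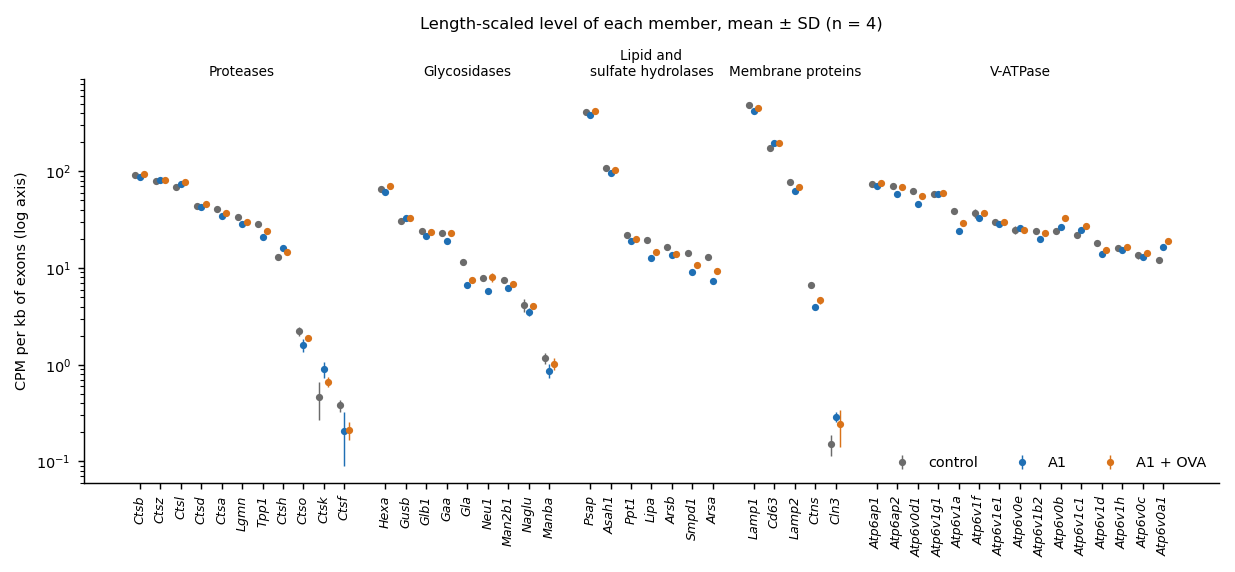
Mean CPM per kb of exons with its SD over 4 samples (y axis, log scale) of the 47 lysosomal genes (x axis, by class and by level in control), for control, A1-treated and A1 + OVA-treated MSCs. Lamp1 and Psap had the highest levels, at 481 and 411 CPM per kb in control, and Ctsk, Ctsf and Cln3 the lowest.

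Length-scaled levels, CPM divided by the kb of all annotated exons, spread far more between genes than between groups. In control they ran from 0.151 (Cln3) to 481 CPM per kb (Lamp1). Among the V-ATPase genes the range was narrower, from 12.1 (Atp6v0a1) to 74.7 CPM per kb (Atp6ap1). In A1-treated MSCs Atp6v0a1 stood at 16.5 CPM per kb and Atp6v1a at 24.2, where control had 12.1 and 38.8. Lengths include every annotated exon, so that genes with long rare isoforms appear lower.

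Of the 7 genes with TCACGTGA in their promoters, only Cln3 was called higher with A1, and it had 9 to 32 counts per sample. With A1, Gla, Atp6v1a, Atp6v0d1 and Ctsa were lower, and Ctsd and Atp6v0e did not pass the test. The log2 fold changes of the 7 ran from -0.81 (Gla) to 0.93 (Cln3), and the next highest was 0.05 (Atp6v0e). A difference in direction between called genes therefore rests on Cln3 alone. The other genes with CACGTG were Arsa, Ctsf, Gaa, Glb1, Lamp1 and Lgmn, which were lower with A1, Atp6v0b and Ctsl, which were higher, and Naglu, which did not pass the test.

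Beyond these 47, a list of 81 other genes of lysosomal function, from enzymes to sorting receptors, was read from the same fit, and 62 of them were tested. With A1, 36 were lower and 9 higher (median -0.22), where 31.1% of all genes tested were lower and 31.7% higher. With A1 + OVA 29 were lower and 13 higher (median -0.13), where 27.9% of all genes tested were lower and 29.7% higher. Directly, 17 were higher and 0 lower with A1 + OVA (median 0.12), where 6.05% of all genes tested were higher and 6.81% lower. The lower genes included Dpp7, a dipeptidyl peptidase (log2 fold change -0.64, SE 0.06, adjusted p = 1.38e-08 with A1) and Idua, an iduronidase (log2 fold change -0.87, SE 0.16, adjusted p = 5.77e-05). Naaa, an amidase, and Gm2a, the GM2 activator, were lower as well (log2 fold changes of -0.60 and -0.47, SE 0.07 for both, adjusted p = 7.22e-08 and 3.95e-06). Of the channels, Mcoln1, which releases calcium, and Tmem175 were lower with A1 (log2 fold changes of -0.58 and -0.53, SE 0.09 and 0.11, adjusted p = 9.12e-06 and 0.000161). Mcoln1 and Idua were higher with A1 + OVA than with A1 (log2 fold changes of 0.39 and 0.70, SE 0.09 and 0.16, adjusted p = 0.00672 and 0.00617). Ctsw, a cathepsin of lymphocytes, had 2 counts in each control sample (0.118 to 0.125 CPM), 1.07 to 1.45 CPM with A1 and 0.801 to 1.12 CPM with A1 + OVA. It passed the filter on low counts only through the treated samples, so its place among the genes counted as higher is not read as a result.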

How the data were processed

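RNA from 12 MSC samples was analysed as gene counts. Per the submitters' processing notes and the study's methods, the authors prepared strand-specific libraries, used bcl2fastq 2.20, aligned the reads to GRCm38 with STAR 2.7 and summarized them with featureCounts 2.0, and they deposited raw counts without normalization. Samples were grouped by their titles. Gene names, exon lengths and coordinates were taken from GENCODE M21 (GRCm38), which holds 99.53% of the identifiers and is an earlier release than the authors used. Of 21974 protein-coding genes, 11314 passed edgeR's filterByExpr. TMM factors scaled the counts, and edgeR 4.0.16 under R 4.3.3 fitted its quasi-likelihood test to all 12 samples together, with group as the only term and Benjamini-Hochberg adjustment over the genes tested. The SE of each log2 fold change was derived from the test, as its size divided by the square root of the F statistic. Procedures were tested on simulated data. The 18 pairs of replicates varied by 1.91 to 6.80 times what counting alone gives, so that none is a copy.

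The lysosomal genes, their classes and the other lists were chosen with earlier results of these data known. Sample values are printed for up to 4 members per class with the largest called change with A1, the highest and lowest member per length in control, and every member called between both treatments with a log2 fold change of 0.25 or more in size. Of the other lysosomal genes, up to 2 per class were named by the size of the change with A1. Not every gene this selects is reported here. Alternatives were DESeq2 1.42.0, upper-quartile factors, no low-count filter, a floor of 10 counts in each sample, non-coding genes included, a fit of 2 groups only, a replicate block, and leaving out each sample. Promoter sequences are those of RefSeq (GRCm38.p6), and windows shared between genes were found by matching exonic 100-base windows.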

Additional observations from a re-analysis of the deposited data

Results flagged for a closer look

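In 159 groups of 4 samples (141 of them groups of the 47 lysosomal genes), the highest or lowest sample was compared with the others by Dixon's ratio. 6 of the 159 groups had a sample that stood apart, which is no more than the about 1 in 20 that chance gives. In control, Gaa had 97.9 CPM in sample 2 against 112.9 to 114.8 CPM in the others, Asah1 had 398 CPM in sample 2 against 359 to 366 CPM, and Cd63 had 693 CPM in sample 1 against 633 to 640.4 CPM. With A1, Atp6v1g1 had 61.3 CPM in sample 2 against 67.0 to 67.8 CPM, and Atp6ap1 had 216 CPM in the same sample against 209 to 210.2 CPM. With A1 + OVA, Atp6v1h had 151 CPM in sample 4 against 161 to 163 CPM.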

How the results depend on the processing

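Across the alternatives no call of a lysosomal gene changed direction. With 1 sample left out, the number of lysosomal genes lower with A1 ranged from 25 to 30, and the number higher from 7 to 11. With A1 + OVA the ranges were 14 to 17 lower and 6 to 9 higher, and in the direct comparison 15 to 21 higher and 0 lower. The other alternatives gave 28 to 33 lower and 7 to 9 higher with A1, 16 to 19 lower and 6 to 8 higher with A1 + OVA, and 17 to 20 higher and 0 lower directly. Upper-quartile scaling gave the 33 and moved the median of all genes to -0.031. It also called Asah1 and Atp6v1b2 lower with A1 + OVA (adjusted p = 0.0485 and 0.0311). Without control sample 1, Ctsd was called higher with A1 + OVA (adjusted p = 0.0175). Deviations from the group mean correlated by 0.02 on average in 12 pairs of samples with the same replicate number and by -0.01 in 36 other pairs, and 4 of 12 samples correlated best with their own number, so that the numbers were not taken to pair samples. With a replicate block the counts were 29 lower and 9 higher with A1, 17 and 8 with A1 + OVA, and 18 higher and 0 lower directly. With 4 samples in each group, small changes of genes with few counts, such as Ctsk, Ctsf and Cln3, are the least certain.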

Other observations

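Genes that bring hydrolases to the lysosome differed among themselves (genes chosen after their values were seen). Of the receptors for the mannose 6-phosphate tag, M6pr was higher with A1 (212 ± 8.39 CPM in control and 254 ± 9.46 CPM with A1, SD, n = 4, adjusted p = 5.4e-06), whereas Igf2r was lower (262 ± 25 and 191 ± 23.7 CPM, SD, n = 4, adjusted p = 2.79e-05). Gnptab, which encodes the enzyme that starts the tag, was lower with A1 (log2 fold change -0.33, adjusted p = 2.18e-07). Sort1, a sorting receptor, was lower with both treatments (log2 fold changes of -1.28 and -0.97, SE 0.29 and 0.26) at levels of 1.64 CPM in control and 0.67 CPM with A1. The V-ATPase assembly factors Ccdc115 and Tmem199 were higher with A1 (log2 fold changes of 0.43 and 0.36, SE 0.07 for both), while Atp6v0a4 was lower (log2 fold change -0.60, SE 0.24, adjusted p = 0.0342) at 1.3 CPM in control. Cst3, cystatin C, an inhibitor of cysteine cathepsins, was higher with A1 and with A1 + OVA (log2 fold changes of 0.21 and 0.22, SE 0.06 for both).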
